A study of Mus musculus with 4 samples.

Results

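Mir99ahg is a long noncoding RNA gene on mouse chromosome 16, named for the microRNA gene Mir99a that lies past its annotated end, together with the genes of let-7c and miR-125b. The peaks described here were chosen by their position in the deposited list: those whose midpoint lay in the mm10 RefSeq span of Mir99ahg (chr16:77329328-77558428), or in the stretch from there past Mir125b-2 (chr16:77562981-77690536). The rule took 141 peaks of the 43106 in the list, 39 in the annotated span and 102 in the stretch beyond it. The bounds of that stretch are the first base of its first peak and the last base of its last peak, so its extent and its number of peaks are a description of the list and were not tested.

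The study used FLASH, a crosslinking and immunoprecipitation method that sequences protein-bound RNA with its strand. It was applied to DHX9, an RNA helicase that opens double-stranded RNA, in neural progenitor cells of the mouse. The cells were derived from the male embryonic stem cell line WT26 (C57BL/6x129sV) and carried no treatment or altered gene that the labels name; they grew with EGF and FGF2. There were 2 libraries with the rabbit antibody to DHX9 and 2 with rabbit IgG, biological replicates A and B of each, all from this 1 cell line. The analysed file was 1 peak list for the 4 libraries together. It gave no count, score or depth per library or peak, so no spread between replicates could be computed and no value per library can be shown. The number of peaks is a count of called regions and is not a level of RNA. Over all protein-coding genes, 18.9% had a peak, counting both strands. Of 12 neural progenitor genes checked, 6 had a peak, among them the glutamate transporter gene Slc1a3 (122 peaks) and Ptprz1 (64), while Sox2, Pax6, Nes, Hes1, Hes5 and Msi1 had none. Of the genes of other cell types, 1 of 5 for mature neurons (Map2, 46 peaks), 0 of 4 for pluripotent cells and 3 of 5 for mesoderm and fibroblasts (Col3a1, Col1a1 and Col1a2) had a peak.

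MicroRNAs are cut from long primary transcripts. The nuclear enzyme Drosha, with its partner DGCR8, frees a hairpin by cutting at its base, and Dicer then removes the loop in the cytoplasm, leaving a 5p strand from the hairpin's first arm and a 3p strand from the other. For a 5p strand, the first base is the base that follows the Drosha cut. The let-7 family is known for its part in the differentiation of progenitor cells, and let-7, miR-99 and miR-125 genes lie near each other in several places of the mammalian genome.

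The 3 microRNAs of the locus are shown first, since the peaks beside their hairpins are described below. Sequences are those of RefSeq (GRCm38.p6, which is mm10), written 5′ to 3′, and the capitals mark the seed (bases 2 to 8), the part of a microRNA that pairs with its targets.
miR-99a-5p: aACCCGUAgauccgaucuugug
let-7c-5p: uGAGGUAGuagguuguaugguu
miR-125b-5p: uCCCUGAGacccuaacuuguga

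Relatives of these 3 are encoded on chromosome 9, in the span of Mir100hg, and on chromosome 17, in the span of Spaca6. They are shown because they share the 3 seeds: miR-100-5p and miR-99b-5p have that of miR-99a-5p, let-7e-5p has that of let-7c-5p, and miR-125a-5p has that of miR-125b-5p. The 5p strand of Mir125b-1, on chromosome 9, is the same as that of Mir125b-2.
miR-100-5p: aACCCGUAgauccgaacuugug
miR-99b-5p: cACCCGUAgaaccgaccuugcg
let-7e-5p: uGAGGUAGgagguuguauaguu
miR-125a-5p: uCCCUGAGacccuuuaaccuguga

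All 141 peaks of the locus lay on the plus strand, and the minus strand had 0. RefSeq gives Mir99ahg, Mir99a, Mirlet7c-1 and Mir125b-2 the plus strand, so every peak was in the sense direction of these genes. The antisense gene 9430053O09Rik (chr16:77393539-77422883, minus strand), which lies within the span of Mir99ahg, had 0 peaks on either strand. None of the 141 peaks had its midpoint in an annotated gene other than Mir99ahg. The locus lay far from other peaks: the nearest peak before it was 3041.4 kb away and on the minus strand, the nearest plus-strand peak before it was 4454.8 kb away, and the nearest peak after it was 3539.2 kb away. The nearest protein-coding genes, Usp25, which encodes a deubiquitinating enzyme (212.5 kb before the annotated start), and Cxadr, which encodes a cell adhesion protein used as a receptor by viruses (610.7 kb past the last peak), had 0 peaks. So did the nearest genes of any kind, the noncoding Gm31258 and Gm31431. The locus held 10.7% of the 1323 peaks of chromosome 16.

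The peaks were sparse at the start of Mir99ahg and became denser along the direction of transcription. The first 50 kb of the gene held 0 peaks, and the next 50 kb held 1, which began 62.9 kb after the annotated start. The following 50 kb stretches held 9, 19, 27, 18 and 42 peaks, and the last, which the locus fills only in part, held 25. Per kb, the annotated span carried 0.170 peaks over its whole length, which includes the 62.9 kb before its first peak. The stretch beyond it carried 0.800, counted from its first peak to its last, so these densities are not measured alike. Peaks covered 6349 bases of the annotated span, or 2.77%, and 17915 bases of the shorter stretch beyond it.

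**Figure D1:**
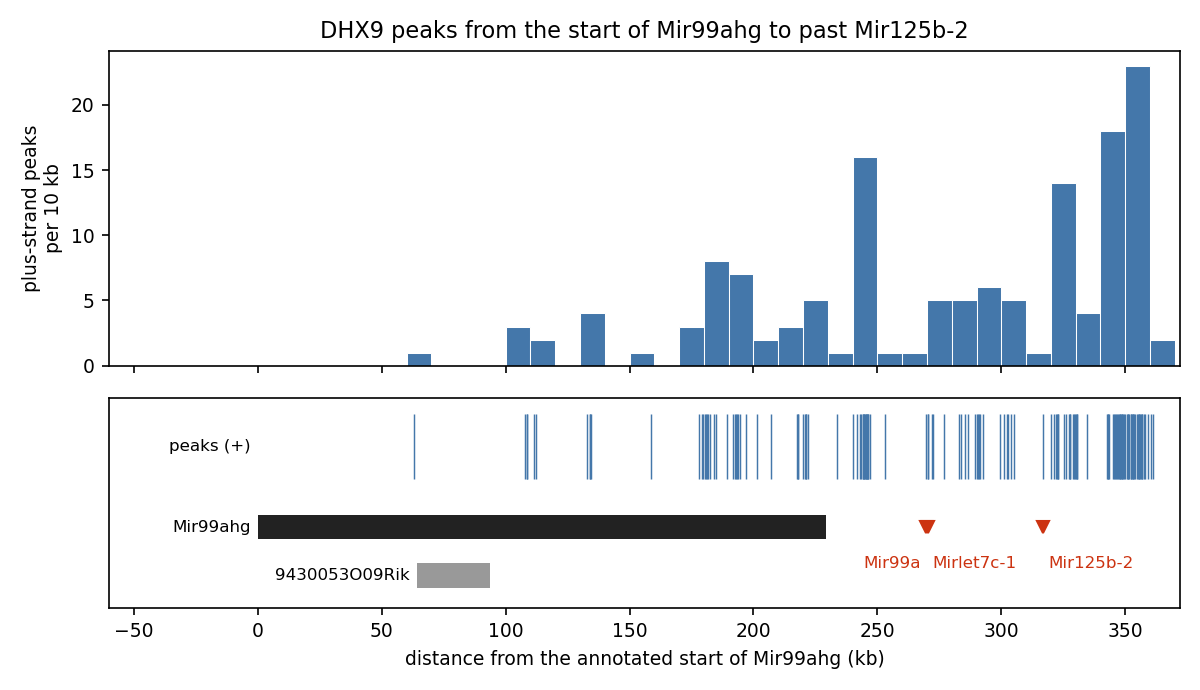
Upper panel, plus-strand DHX9 peaks per 10 kb (bars) against distance from the annotated start of Mir99ahg in kb; lower panel, each peak as a line, the annotated spans of Mir99ahg and of the antisense gene 9430053O09Rik as bars and the 3 microRNA genes as triangles. Of the 141 peaks, 102 lie past the annotated end of Mir99ahg, and the highest bar, with 23 peaks, starts 350 kb from its start.

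Seen from the microRNA genes, the locus fell into parts of unlike density. From the annotated end to Mir99a (40.5 kb) there were 19 peaks, or 0.469 per kb, and from Mir99a to Mir125b-2 (47.3 kb) there were 22, or 0.465 per kb. From Mir125b-2 to the last peak (44.3 kb) there were 61, or 1.38 per kb, and they covered 25.5% of the bases. The last peak ended 44.2 kb past Mir125b-2 and 132.1 kb past the annotated end of Mir99ahg. The block with the most peaks followed Mir125b-2: 36 peaks in 13.1 kb (chr16:77674373-77687435), each within 1 kb of the next, covering 59.9% of the bases. Another block, with 14 peaks in 4.06 kb (chr16:77572415-77576472), lay between the annotated end and Mir99a and was denser, at 3.45 peaks per kb against 2.76. In the annotated span, the largest block at this limit held 7 peaks in 3.23 kb. The median peak length was 145 bases in the annotated span, 136 bases from its end to Mir99a, 167.5 bases from Mir99a to Mir125b-2 and 150 bases from there on, against 153 bases over the whole list. The longest peak of the locus, 507 bases, lay in the block of 36 peaks (chr16:77674580-77675086).

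Whether the peaks form a single unbroken stretch depended on the distance allowed between neighbours. The median distance between neighbouring midpoints was 536 bases, and 98 of the 140 distances (70.0%) were under 1 kb. Only 8 were over 10 kb, and 5 of these lay inside the annotated span of Mir99ahg, where the largest was 45.0 kb. The distance that crosses the annotated end was 11.9 kb, which was shorter than 4 of those inside the span: 45.0, 24.3, 20.5 and 19.5 kb. The last peak inside the span ended 7.13 kb before the annotated end and the first peak outside began 4.55 kb after it. Past that end there were 2 distances over 10 kb, of 16.5 kb and 11.8 kb.

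With neighbours at most 10 kb apart, the 141 peaks made 9 runs, the largest of which held 62 peaks over 44.3 kb. With at most 20 kb they made 4 runs, and 131 peaks (92.9%) fell in a single run of 202.7 kb that reached from inside Mir99ahg, 158.5 kb after its start, past all 3 microRNA genes to the last peak. With at most 50 kb all 141 made 1 run of 298.3 kb, and with at most 5 kb they made 15. The annotated end of Mir99ahg thus fell inside the 20 kb run, but at limits of 10 kb and 5 kb it fell between 2 runs. That end was not marked by the widest distance, nor by a change of strand, since all 141 peaks lay on the plus strand. Still, the 11.9 kb across it was long beside the median distances, 729 bases in the span and 420.5 bases past its end. A peak list holds no reads that join one peak to another, so it cannot show whether the RNA was 1 transcript, several transcripts in a row, or a spliced and an unspliced form together; exons were not used here.

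**Figure D2:**
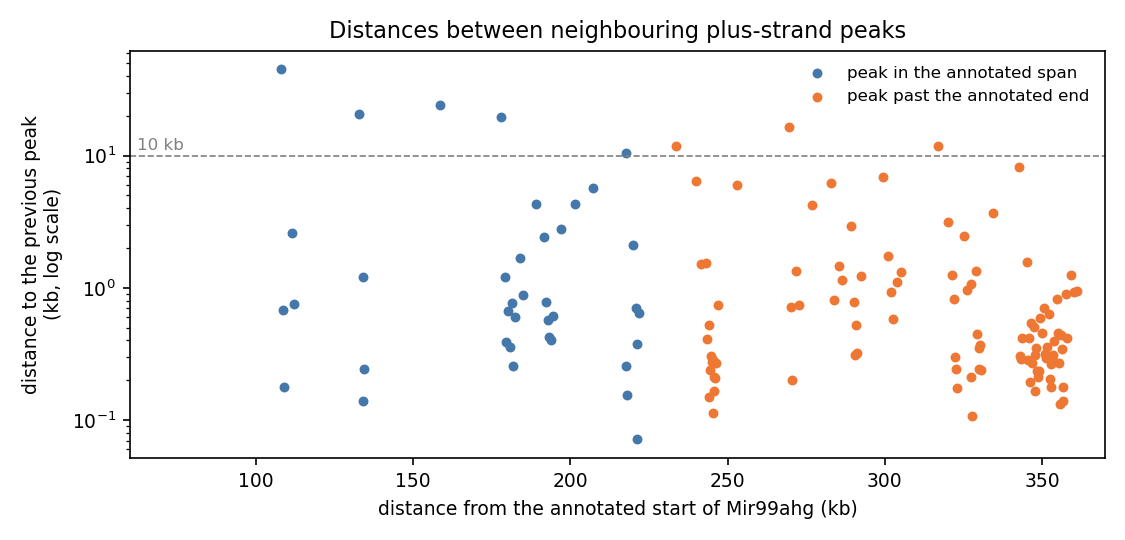
Each point is a peak, with its distance to the previous plus-strand peak in kb (log scale) against its distance from the annotated start of Mir99ahg in kb; colours separate peaks in the annotated span from those past its end, and the dashed line marks 10 kb. The 8 points above the line include 5 inside the span, with the largest distance at 45.0 kb.

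Both of the long distances past the annotated end finished at a microRNA hairpin. The 16.5 kb without a peak was closed by the peak at Mir99a, and the 11.8 kb by the peak at Mir125b-2, so that the 10 kb runs of 22 and 62 peaks each began at a hairpin. All 3 microRNA genes of the locus had a same-strand peak over at least 1 base of the hairpin, where 4.57% of 1072 microRNA genes in the list had one. The genes of the locus were picked with these peaks known, so nothing is read from that difference.

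At Mirlet7c-1 (chr16:77599657-77599750) a peak of 105 bases ended on the base before let-7c-5p begins. It ran from 77599567 to 77599671, and the 5p strand starts at 77599672. A further peak, of 221 bases, began after the 5p strand, 38 bases past its first base, and ran from 77599710 to 77599930 over the 3p arm and beyond. No base of let-7c-5p itself was in a peak. At Mir125b-2 (chr16:77646273-77646343) a peak of 70 bases, from 77646211 to 77646280, ended 1 base past the first base of miR-125b-5p and covered 8 of the 71 bases of the gene. The next peaks were 11702 bases before and 3000 bases after this gene, so the short peak stood by itself. At Mir99a (chr16:77598936-77599000) a peak of 98 bases, from 77598854 to 77598951, ended 11 bases past the first base of miR-99a-5p and covered 16 of the 65 bases. In each of the 3 genes, then, a peak lay over the 5′ flank of the hairpin and stopped in or before the 5p strand.

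The hairpins of Mir99a and Mirlet7c-1 are printed to show where the peaks stop, with the bases inside a peak in capitals.
Mir99a: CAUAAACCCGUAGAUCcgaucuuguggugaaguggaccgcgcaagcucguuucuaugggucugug
Mirlet7c-1: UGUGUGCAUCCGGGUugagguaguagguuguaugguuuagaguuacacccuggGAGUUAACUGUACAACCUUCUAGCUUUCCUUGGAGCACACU

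The same measure was then taken at all let-7 genes, of which the rule used only the region around Mirlet7c-1. Of 11 let-7 genes, 8 had a same-strand peak over the hairpin, against 4.57% of all 1072 microRNA genes. These 8 include Mirlet7c-1, and the RNA levels of the genes were not used here, so nothing is read from that difference. Of the 11 genes, 10 have a 5p strand in the sequence table. In 5 of these 10 the peak's last base was within 2 bases of the first base of the 5p strand: it was the base before in Mirlet7c-1, Mirlet7d and Mirlet7g, and 1 base past the first in Mirlet7a-1 and Mirlet7c-2. These peaks were short, between 78 bases (Mirlet7c-2) and 105 bases (Mirlet7c-1). The hairpins below show this edge in genes on chromosomes 15, 13 and 9, again with the bases inside a peak in capitals.
Mirlet7c-2: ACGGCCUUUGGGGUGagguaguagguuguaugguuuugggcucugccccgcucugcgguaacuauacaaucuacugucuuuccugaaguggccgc
Mirlet7a-1: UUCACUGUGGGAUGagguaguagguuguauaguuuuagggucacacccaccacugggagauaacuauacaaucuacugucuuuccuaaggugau
Mirlet7d: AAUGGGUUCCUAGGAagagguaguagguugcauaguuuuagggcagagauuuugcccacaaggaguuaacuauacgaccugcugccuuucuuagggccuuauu
Mirlet7g: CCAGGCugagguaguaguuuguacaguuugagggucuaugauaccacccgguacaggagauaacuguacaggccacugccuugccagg

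The other let-7 genes did not have that edge. In Mirlet7f-1 the peak ended 31 bases past the first base of the 5p strand. In Mirlet7e a peak of 331 bases covered all 93 bases of the hairpin. In Mirlet7i the peak began 55 bases past the first base of the 5p strand and lay over the 3′ side. Mirlet7b had no peak over its hairpin, with the nearest 197 bases away, and the nearest same-strand peaks to Mirlet7a-2 and Mirlet7f-2 were 21.9 kb and 42.3 kb away. The 5p strands of Mirlet7c-1 and Mirlet7c-2 are identical, and so are those of Mir125b-1 and Mir125b-2, and how the authors placed reads that map to several sites is not given in the sources used here. Whether the placement of such reads shaped the peak edges was not tested.

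**Figure D3:**
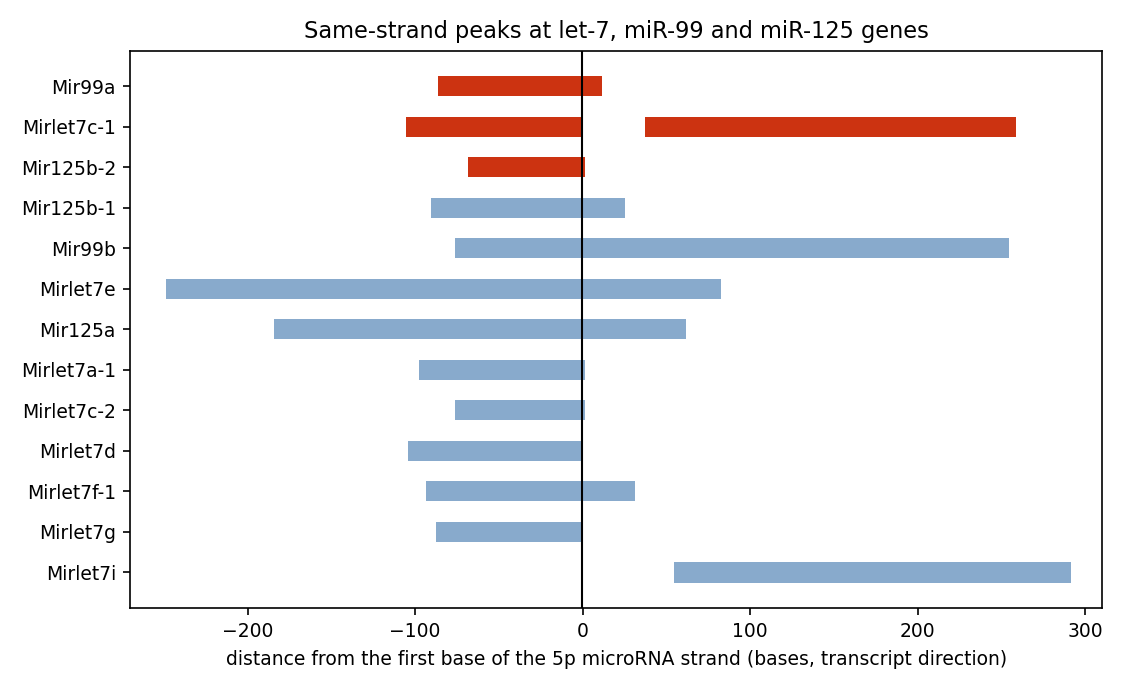
Bars show same-strand peaks that overlap the hairpins of let-7, miR-99 and miR-125 genes, in bases from the first base of the 5p strand (black line), in transcript direction; the 3 genes of the locus are red and their relatives elsewhere blue. The left bar of Mirlet7c-1 and the bars of Mirlet7d and Mirlet7g stop on the base before the line. Those of Mir125b-2, Mirlet7a-1 and Mirlet7c-2 stop 1 base past the first base of the 5p strand. A further bar of Mirlet7c-1 begins 38 bases past that base.

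Over all 727 5p strands in the table, 30 same-strand peaks ended within 60 bases of a 5p strand's first base, and 11 of these ended within 2 bases of it. No other class of 5 bases in that window held more than 5 peak ends. The 11 belonged to 11 microRNA genes, including Mirlet7c-1 and Mir125b-2 from the locus. On the other side of the hairpin, 11 peaks began within 60 bases of the last base of any of 731 3p strands. Of these, 1 was within 2 bases, at Mir298. The 11 peak starts are fewer than the 30 peak ends, so whether that side lacks an edge cannot be told. The pattern at the 5p strand was noticed in these same peaks, and the edges are those the peak caller set. No level in the IgG libraries was used, so the pattern is given as a description without a test.

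**Figure D4:**
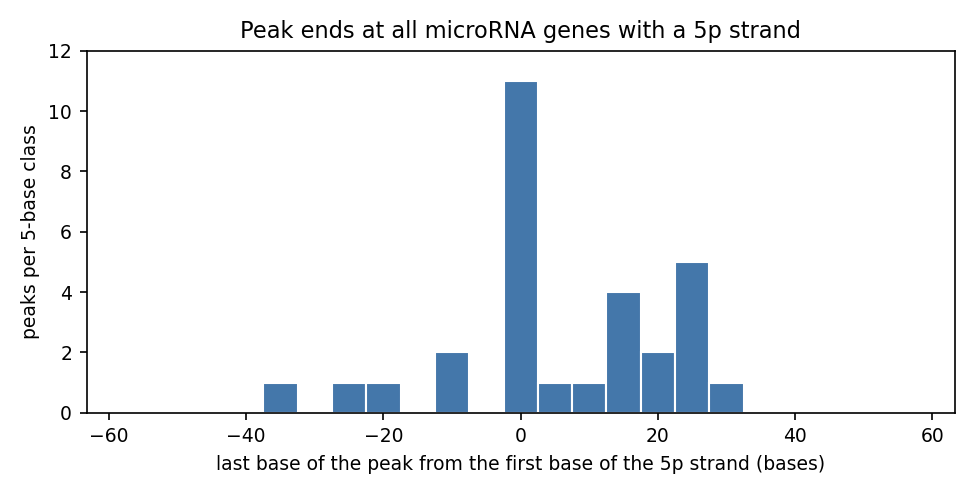
Number of peaks (bars, classes of 5 bases) by the distance of the peak's last base from the first base of the 5p strand, in bases and transcript direction, over 727 5p strands. The class centred on 0 holds 11 peaks, and the highest other class holds 5.

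The relatives on chromosomes 9 and 17 carried peaks in other arrangements. Mir100hg (chr9:41376526-41615185), the host of Mir100, Mirlet7a-2 and Mir125b-1, had 38 peaks, all on the plus strand, which is its own. Its span of 238.7 kb is close to the 229.1 kb of Mir99ahg, and its density was 0.159 peaks per kb against 0.170. Yet 31 of its 38 peaks lay in a single run of 12.4 kb (chr9:41580076-41592469) that takes in Mir125b-1, and its largest distance between neighbours was 90.9 kb. Mir125b-1 had a peak over 40 of the 77 bases of its hairpin, ending 25 bases past the first base of the 5p strand. Mir100 was 27.2 kb and Mirlet7a-2 21.9 kb from the nearest same-strand peak. The distance from the let-7 gene to the miR-125 gene is alike in both hosts, 46.5 kb on chromosome 16 and 45.1 kb on chromosome 9. On chromosome 16 the hairpins at both ends of this stretch had a peak, and on chromosome 9 the one of Mir125b-1 did.

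On chromosome 17 the 3 microRNA genes lie close together in Spaca6 (chr17:17826085-17843010), a protein-coding gene known for sperm and egg fusion, with 94 bases from Mir99b to Mirlet7e and 367 from there to Mir125a. Spaca6 carried 25 plus-strand peaks in 1 run at 1.48 per kb. A single peak of 331 bases spanned the hairpins of Mir99b and Mirlet7e whole, and a peak of 246 bases held 67 of the 68 bases of Mir125a. Over the 3 clusters, all 3 miR-125 genes and 2 of the 3 miR-99 and miR-100 genes had a peak over the hairpin. Mir100 was the exception, and the share over all 1072 microRNA genes was 4.57%. Mir99a and Mir125b-2 were picked with their peaks known, so nothing is read from that difference.

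Among long noncoding RNA genes, 419 of 12727 (3.29%) had a peak at all, counting both strands. By peaks on the majority strand, Mir99ahg ranked 13 of the 419, level with 5031425E22Rik at 39 peaks and next to Mir100hg at 38. Counting only peaks that lie in no protein-coding gene, it ranked 6, behind Airn (127), Gm4258 (79), A230057D06Rik (76), Pvt1 (52) and Ino80dos (43). These ranks leave out the 102 peaks past its annotated end, which lie in no annotated gene. Those 102 made up 9.92% of the 1028 nuclear peaks in no annotated gene. With microRNA genes set aside as borders, 355 stretches between neighbouring genes held such peaks on a strand, and the one after Mir99ahg held the most. The next was on chromosome 2 before Gnasas1, with 35 minus-strand peaks, followed by 30 between the calcium channel subunit genes Cacng7 and Cacng8. The stretch after Mir99ahg was picked with its peaks known, so nothing is read from its share or rank. These counts are also not divided by the length of each stretch.

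**Figure D5:**
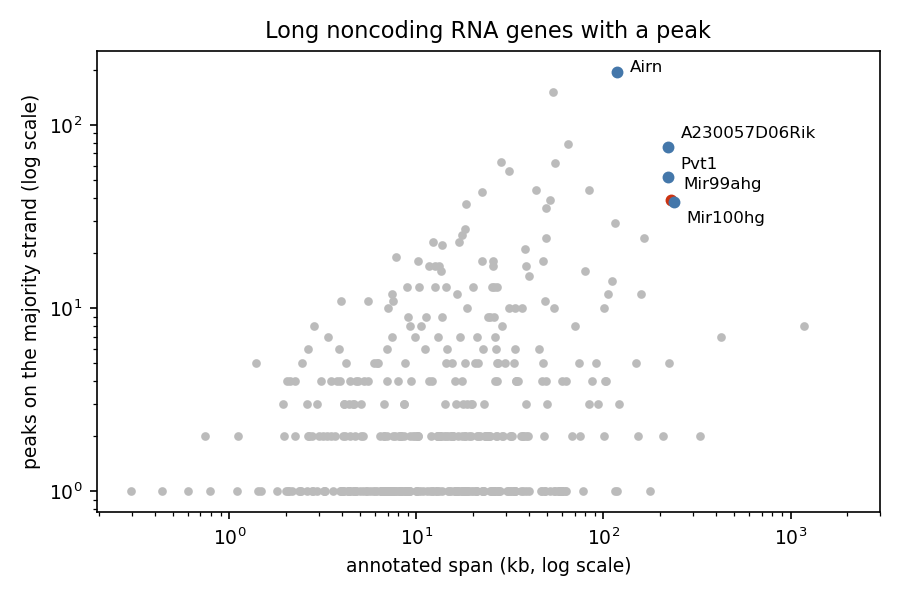
Each point is a long noncoding RNA gene with at least 1 peak, with its peaks on the majority strand against its annotated span in kb, both on log scales; Mir99ahg is red and 4 other genes are named. Mir99ahg and Mir100hg lie side by side, at 39 and 38 peaks.

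Set beside the 530 genes of any kind with at least 20 peaks on their majority strand, Mir99ahg was long and sparse. Its 0.170 peaks per kb compared with a median of 0.522, and 15.1% of the genes had a lower density. Its median distance between neighbouring peaks, 729 bases, compared with a median of 462 bases, and 82.5% of the genes had a shorter one. Its largest distance, 45.0 kb, compared with a median of 15.4 kb, and 79.2% of the genes had a shorter one. As a share of the span that distance was 19.6%, where the median gene had 19.5%. The stretch past its annotated end had a shorter median distance, 420.5 bases. In fixed bins of 20 kb per strand, the fullest bin of the locus held 24 peaks (chr16:77680001-77700000), and 257 of 8258 bins with a peak held more. The median bin held 2 peaks and the fullest 64.

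The genes most like Mir99ahg were taken by the smallest distance in log10 number of majority-strand peaks and log10 span, over this 1 list. They included Slc10a7, which encodes a transporter-like membrane protein (40 peaks over 224.7 kb), Mir100hg, Cmip (41 over 204.5 kb) and the neural cell adhesion gene Chl1 (34 over 222.5 kb). The largest distances between neighbouring peaks in these 4 ran from 33.9 kb in Cmip to 90.9 kb in Mir100hg, with 45.0 kb in Mir99ahg. None of the 4 had a peak on the other strand.

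Of 11 other long noncoding hosts of microRNAs listed, 4 had a peak, against 3.29% of all long noncoding RNA genes. They were Mir100hg (38 peaks), H19, the imprinted host of Mir675 (6 minus-strand peaks over 2.62 kb), Mir22hg (2) and the imprinted Meg3 (1). The 7 without were Mir17hg, Mir9-3hg, Mir124a-1hg, Mir124-2hg, Mir155hg, Mirg and Rian. The list does not hold every host: Lncppara, whose span takes in Mirlet7c-2, is not in it. The share is therefore that of the listed genes only. The RefSeq span of Mir17hg (chr14:115044390-115046728) begins after Mir17 and Mir20a and at the end of Mir19b-1, and these 3 microRNA genes each had a same-strand peak over the hairpin.

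Of 16 genes that act in the making of microRNAs or around let-7, 10 had a peak, where 18.9% of all protein-coding genes did; the RNA levels of these genes were not used here. For the cutting enzymes and their partners, Drosha had 2 peaks, Dgcr8 12 and Dicer1 2, while Xpo5, the exporter of hairpins, and Tarbp2, a partner of Dicer, had none. The helicase genes Ddx17 and Ddx5, whose proteins work with Drosha, had 31 and 7. Among effectors, Ago2 had 2 and Ago1 none. Of the let-7 regulators, Tut4 and Tut7, which add uridine to let-7 precursors, had 23 and 1, and Lin28a and Lin28b, which block let-7 maturation, had none. Of the known let-7 targets, Hmga2 had the most with 86 peaks, Igf2bp1 had 5 and Trim71 none. Each of the 10 genes had its peaks on a single strand.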

How the data were processed

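The authors deposited 1 list of peak regions, made with PEAKachu per the file itself, for 2 DHX9 and 2 IgG libraries. Each line holds a chromosome, first and last base (1-based) and strand; the score column is empty. The submitters' processing notes list Bowtie2 2.2.6, hg19 and mm10. The settings of PEAKachu, and how it used the IgG libraries, are not given in the sources used here. Positions were read as mm10.

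A peak on either strand belonged to a gene of the RefSeq table (GRCm38.p6, 49980 genes) whose span held its midpoint. The majority strand of a gene is the one with most of its peaks, which need not be its own strand. MicroRNA hairpins used any overlap of at least 1 base on the same strand. Gene strands were read from the RefSeq promoter and microRNA tables, where they list the gene. Distances run between neighbouring midpoints. Peak ends at hairpins are distances from the first base of the 5p strand in transcript direction; 1072 microRNA genes and 727 5p strands had entries. Named genes were those in or next to the locus, listed members with a peak, and the 5 genes nearest in number of peaks and span, 1 of which is not reported here; 1 listed host, Mir181a-1hg, was not matched. Genes named for their rank, for a stretch between genes or for peak ends were picked once their values were known. The members and lists were chosen with earlier results of these data known. Counting was tested on made-up peaks. Python 3.11.15 and pandas 2.3.3 were used. Alternatives were longer peaks only, merging within 50 bases, any overlap, other limits between neighbours and other windows at the 5p strand.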

Additional observations from a re-analysis of the deposited data

How the results depend on the processing

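No paired analysis was possible because the libraries share 1 peak list, so no replicate could be left out either. When peaks under 153 bases, the median length, were dropped, there were 64 plus-strand peaks in the locus in place of 141, 0.177 per kb in place of 0.390, a median distance of 814.5 bases in place of 536, a largest distance of 43.7 kb in place of 45.0 and 24 peaks in the longest run at 10 kb in place of 62. Merging peaks within 50 bases left 116 peaks, 0.321 per kb and a median distance of 757.5 bases. Any overlap changed none of the 4 values computed with it. The annotated span alone held 39 peaks and the stretch beyond it 102. The longest run held 43 peaks at 5 kb, 131 at 20 kb and 141 at 50 kb. Settings at the 5p strand were chosen after seeing the data: 11 microRNA genes had a peak end within 2 bases, also within 1 and within 5 bases, 10 after merging, and 2 with the longer peaks only, since most of these peaks are shorter than the median. With no depth in the list, a stretch without a peak is a stretch without a called peak.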

Other observations

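Beyond let-7 and Mir125b-2, 5 microRNA genes had a same-strand peak that ended on the first base of the 5p strand or on the base before it. In Mir34a and Mir298 it was the base before, and in Mir20a, Mir22 and Mir23a the first base itself. The hairpins of Mir34a and Mir22 are printed to show it, with the bases inside a peak in capitals.
Mir34a: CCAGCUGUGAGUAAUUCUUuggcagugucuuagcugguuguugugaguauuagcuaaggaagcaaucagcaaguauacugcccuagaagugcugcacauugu
Mir22: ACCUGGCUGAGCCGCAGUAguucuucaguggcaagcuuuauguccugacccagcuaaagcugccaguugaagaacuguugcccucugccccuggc

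Other peaks ended further in, spread over the 5p strand and near its end. The classes from 13 to 17, 18 to 22 and 23 to 27 bases past its first base held 4, 2 and 5 peak ends. Those 5 lay at 23 bases in Mir9-2 and Mir1306, 25 in Mir125b-1 and Mir188, and 26 in Mir17. At Mir298 peaks flanked the hairpin on both sides, with one that ended on the base before miR-298-5p and another that began on the last base of miR-298-3p. These genes were named after their values were seen.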
